A study of Mus musculus with 2 samples.

Results

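Cluster 5 is the group of macrophages and monocytes among the immune and stromal cells of the mouse salivary gland, and it held 757 of 15605 cells. Its members were not chosen by any comparison of the conditions: they are the cells that the authors' clustering of all cells put in cluster 5 of 12, and the deposited tables give the mean of each gene over them. The 2 libraries were prepared from the submandibular and sublingual glands of C57BL6/J females, 14 weeks old, with the 10X Genomics droplet system. In the ligated library a metal clip had closed the main ducts for 14 days, and in the mock library the ducts had been found but not clipped, with the same 14 days of healing. Each library pooled 2 glands, the labels do not say from how many mice, and cells with EpCAM, a protein of epithelial surfaces, or Ter119, a protein of the red blood cell lineage, were drawn out with magnetic beads before dead cells were removed. There was 1 library per condition, so no difference below has a replicate check, a test or an error other than counting error, and every difference describes these 2 libraries.

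Macrophages are resident phagocytes that take up dying cells and debris, digest them in lysosomes and show peptides to T cells on class II molecules. They depend on signals through the receptor encoded by Csf1r and on the transcription factor PU.1, encoded by Spi1. Monocytes are their circulating relatives, which enter injured tissue from blood, guided in part by the chemokine receptor Ccr2, and can become macrophages there. In the salivary gland, macrophages lie among ducts, acini and vessels, and ligation of the ducts is a standard injury model in which the secretory tissue shrinks and inflammation follows.

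The unit throughout is UMIs of a gene per 10000 UMIs of a cell, averaged over the cells of the cluster, where a UMI (unique molecular identifier) stands for 1 captured RNA molecule. The 4 genes that define macrophages were all far higher in cluster 5 than in any other cluster over the cells of both libraries. Adgre1, which encodes the F4/80 antigen, had a level of 3.19 in cluster 5 and 0.40 in the next highest cluster. Csf1r stood at 5.30 against 1.13, and Cd68, a protein of lysosomal membranes, at 5.34 against 1.03. Lyz2, lysozyme of myeloid cells, stood at 25.5 against 3.80. Of 20 macrophage markers, 18 were highest in cluster 5, and over all 20 the median ratio to the highest other cluster was 4.71. The exceptions were Mertk, a receptor for dying cells, at 0.10 against 0.48 in cluster 0, and Tyrobp, an adaptor of activating receptors, at 31.2 against 31.8 in cluster 1. For 15 of the 20 markers the next highest was cluster 10, the cluster with the highest levels of the haemoglobin genes Hbb-bs and Hba-a1. Since the cells were grouped on their expression, these levels describe the cluster and test nothing.

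**Figure D1:**
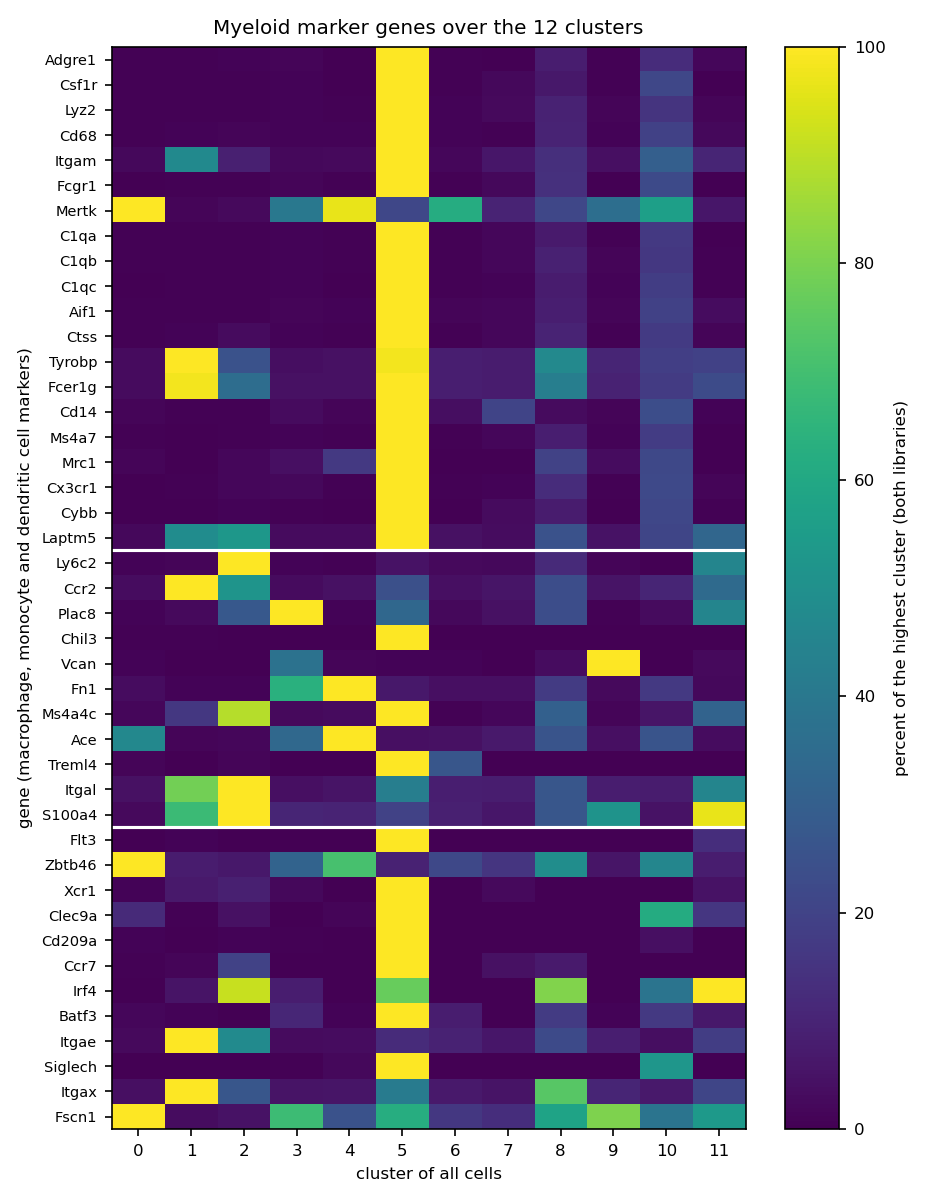
Level of each macrophage, monocyte and dendritic cell marker (rows, the 3 groups parted by white lines) in the 12 clusters of all cells (columns), both libraries together, as a percentage of that gene's highest cluster (colour). Of the 20 macrophage markers in the top block, 18 have their highest level in cluster 5, while of the 11 monocyte markers drawn in the middle block only 3 (Chil3, Ms4a4c and Treml4) do.

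The 15 genes with the highest ratio of cluster 5 to any other cluster, among those with a level of at least 1, included Ms4a6d, Mmp12, Adgre1, Ms4a6c, Pkib, Plbd1, Hpgd, Il1b, Ccl12, Lyz2, Slamf9, Lrrc25, Zmynd15 and Lair1. Mmp12, the macrophage metalloelastase, stood at 1.25 in cluster 5 and 0.16 in the next cluster. Il1b, the inflammatory cytokine interleukin 1 beta, stood at 1.89 against 0.26. Altogether 1493 genes had their highest mean in cluster 5, and 272 of these had a level of at least 1.

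PU.1 binds purine-rich sites around the core GAGGAAGT, and the windows of 300 bases at the start of these genes (250 before the start and 50 after it, RefSeq, GRCm38.p6) were searched for that core on both strands. Of the 15 genes above, 10 had a window, and 2 of their 12 windows (16.7%) held the core. Of the 20 macrophage markers, 15 had a window, and 2 of their 16 windows (12.5%) held it, beside 3.20% of all 32851 windows. A match shows only that these letters are there. The 4 windows with a match are printed because each belongs to a gene that marks the cluster, with the match in capitals (on the other strand it reads ACTTCCTC).
C1qc (chr4:136892865-136893164, minus strand, match beginning 195 bases before the start): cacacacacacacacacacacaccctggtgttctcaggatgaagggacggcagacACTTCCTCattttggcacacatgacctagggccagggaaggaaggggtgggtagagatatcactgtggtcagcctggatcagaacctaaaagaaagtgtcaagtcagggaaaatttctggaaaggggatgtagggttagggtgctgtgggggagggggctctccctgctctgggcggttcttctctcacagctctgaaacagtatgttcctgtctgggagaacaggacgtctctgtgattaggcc
Ctss (chr3:95526536-95526835, plus strand, match beginning 2 bases before the start): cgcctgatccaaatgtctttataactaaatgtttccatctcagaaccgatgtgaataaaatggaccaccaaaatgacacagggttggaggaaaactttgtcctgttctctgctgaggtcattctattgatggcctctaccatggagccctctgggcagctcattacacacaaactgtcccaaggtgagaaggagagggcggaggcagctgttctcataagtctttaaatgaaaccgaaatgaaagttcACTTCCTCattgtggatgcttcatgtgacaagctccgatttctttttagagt
Mmp12 (chr9:7344147-7344446, plus strand, match beginning 88 bases before the start): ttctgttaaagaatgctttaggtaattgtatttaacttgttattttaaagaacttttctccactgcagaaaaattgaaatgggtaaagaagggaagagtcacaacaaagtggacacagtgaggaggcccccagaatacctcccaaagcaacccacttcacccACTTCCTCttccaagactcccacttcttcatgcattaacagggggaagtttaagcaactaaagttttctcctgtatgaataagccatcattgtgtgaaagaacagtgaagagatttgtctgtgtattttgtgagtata
Slamf9 (chr1:172475110-172475409, plus strand, match beginning 8 bases before the start): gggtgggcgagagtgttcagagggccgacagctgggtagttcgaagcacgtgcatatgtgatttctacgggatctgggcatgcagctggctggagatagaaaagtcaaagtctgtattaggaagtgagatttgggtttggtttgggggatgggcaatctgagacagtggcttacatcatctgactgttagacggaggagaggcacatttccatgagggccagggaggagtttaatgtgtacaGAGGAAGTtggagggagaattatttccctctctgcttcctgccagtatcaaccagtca
C1qc encodes a chain of complement C1q, Ctss the class II-processing protease cathepsin S, and Slamf9 a surface receptor of the SLAM family. Spi1 itself had a level of 5.36 after ligation and 4.34 after mock surgery.

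The monocyte part of the name had less behind it. Of 12 monocyte markers, 3 were highest in cluster 5, each at a level under 1: Chil3 at 0.085 after ligation and 0.66 after mock surgery, Ms4a4c at 0.45 and 0.63, and Treml4 at 0.024 and 0.22. Ly6c2, a surface marker of inflammatory monocytes, stood at 0.34 after ligation and 0.24 after mock surgery, below its level in cluster 2. Vcan, a proteoglycan of classical monocytes, stood at 0.027 and 0.055. The cluster is therefore called by its number or as the macrophage cluster in what follows.

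Cluster 5 also held genes of B cells and of dendritic cells. It carried 83.3% of all Cd79a, part of the B cell receptor, after ligation and 71.5% after mock surgery, where the share is the cluster's cells times its mean over the same sum in 12 clusters. For Ms4a1, which encodes CD20, the shares were 85.3% and 73.6%, and for the kappa light chain Igkc they were 81.1% and 71.8%. Flt3, a growth factor receptor of dendritic cell precursors and dendritic cells, had 93.5% and 91.9% of its total there, and Siglech, a marker of plasmacytoid dendritic cells, 94.0% and 73.8%. The 9 B and plasma cell markers summed to 7.19 after ligation and 11.8 after mock surgery, with Jchain at 0 in the ligated cells of cluster 5. The 12 dendritic cell markers summed to 3.81 and 4.21, and none of the 4 with a level of at least 0.5 differed 2-fold. The cluster means are thus means over macrophages and some cells or RNA of these kinds, and how many cells of each kind there were cannot be read from a mean.

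RNA of cell types that belong to other clusters was present at low levels and differed between the libraries. Ductal markers summed to 11.8 after ligation and 1.93 after mock surgery, almost all of it Klk1, a kallikrein secreted by duct cells, at 11.01 and 1.64. T cell markers summed to 3.28 and 0.800, with Cd3d, Cd3e, Trac and Cd28 at 0 in the mock library. Natural killer cell markers summed to 9.05 and 3.42, and fibroblast markers to 3.26 and 0.636, with Col3a1 at 0 in the mock library. In the other direction, erythroid markers summed to 8.41 and 19.2, endothelial markers to 7.74 and 10.5, and acinar markers to 0.301 and 1.52. Neutrophil markers summed to 0.419 and 0.566, above their sums in the library means (0.037 and 0.214), so they were not mainly markers of other clusters. Set against the mean of each library over all its cells, the median marker of another cell type reached 25.7% in the ligated and 11.1% in the mock cluster (61 markers). An alternative therefore subtracts that share of the library mean from each cluster mean, and is called the subtraction below. The subtraction did not remove the gap in Klk1, the largest of the ductal signals, but widened it. With 0.1 added to each level, the log2 ratio of ligated over mock Klk1 was 2.68 before the subtraction and 5.98 after it. A difference that stays after the subtraction can thus still come from RNA of other cell types.

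**Figure D2:**
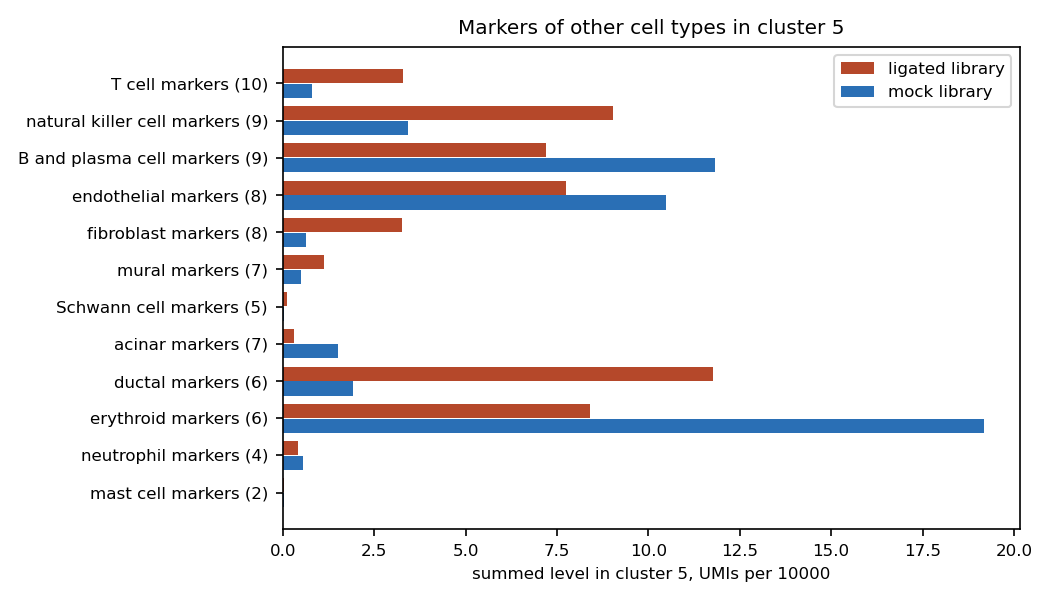
Summed level in cluster 5 (x axis, UMIs per 10000) of the markers of 12 other cell types (y axis, number of markers measured in both libraries in parentheses), in the ligated library (red bars) and the mock library (blue bars). Ductal, natural killer, T cell and fibroblast markers are higher in the ligated library, and erythroid, B cell, endothelial and acinar markers are higher in the mock library.

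The macrophage cluster made up a larger share of the ligated library. It held 680 of 11406 cells, or 5.96% (95% Clopper-Pearson interval 5.53 to 6.41), in the ligated library and 77 of 4199 cells, or 1.83% (1.45 to 2.29), in the mock library. These intervals cover counting error only, and the shares describe what was left after bead depletion and dead cell removal, not the gland. In proportion the gap was smaller over other denominators. Among the cells of clusters 1, 2 and 5, which carry lymphoid and myeloid genes, the share was 12.5% (680 of 5426, 11.7 to 13.4) in the ligated and 8.45% (77 of 911, 6.73 to 10.5) in the mock library. Without cluster 0, the share was 8.04% of 8458 cells and 4.19% of 1836 cells.

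Depth differed little between the libraries in the cells whose UMI total could be recovered, but the number of cells did. The median total was 11429 UMIs over 264 ligated cells (574 to 41325) and 10420 over 37 mock cells (990 to 25188). A single UMI in a cell of median depth adds 0.00129 to the ligated mean and 0.0125 to the mock mean, and 3 UMIs add 0.00386 and 0.0374. Deeper cells are more likely to be among those recovered. A low level in the mock library can thus come from very few cells.

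The difference of a gene is the log2 of its level after ligation plus 0.1 over its level after mock surgery plus 0.1, a scale that shrinks differences of low genes. Where a pair of levels is given from here on, the first is that of the ligated and the second that of the mock cluster, and a number in parentheses after a pair is the difference. Genes with a level of at least 0.5 in 1 library were compared, which left 3116 genes. A gene that reached 0.5 in only 1 library could thus enter only as higher in that library. This applies to every compared gene below that has 1 of its levels under 0.5, whether or not it is repeated there. A gene is said to be past the size rule where the difference is at least 1 in size. By that rule 91 genes (2.92%) were higher and 112 (3.59%) lower in the ligated library, 203 (6.51%) in all, and the median difference of all genes was 0.03. Of the 491 compared genes whose highest cluster is cluster 5, 11 were higher (2.24%) and 19 lower (3.87%). Over the 24 lists of gene functions, 245 of 461 genes were compared, of which 10 were higher (4.08%) and 23 lower (9.39%). Most genes that are highest in the cluster thus differed less than 2-fold on this scale. Of 84 single differences past the rule, those of list members and of the other genes singled out, 27 stayed past it with a pseudocount of 1.

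**Figure D3:**
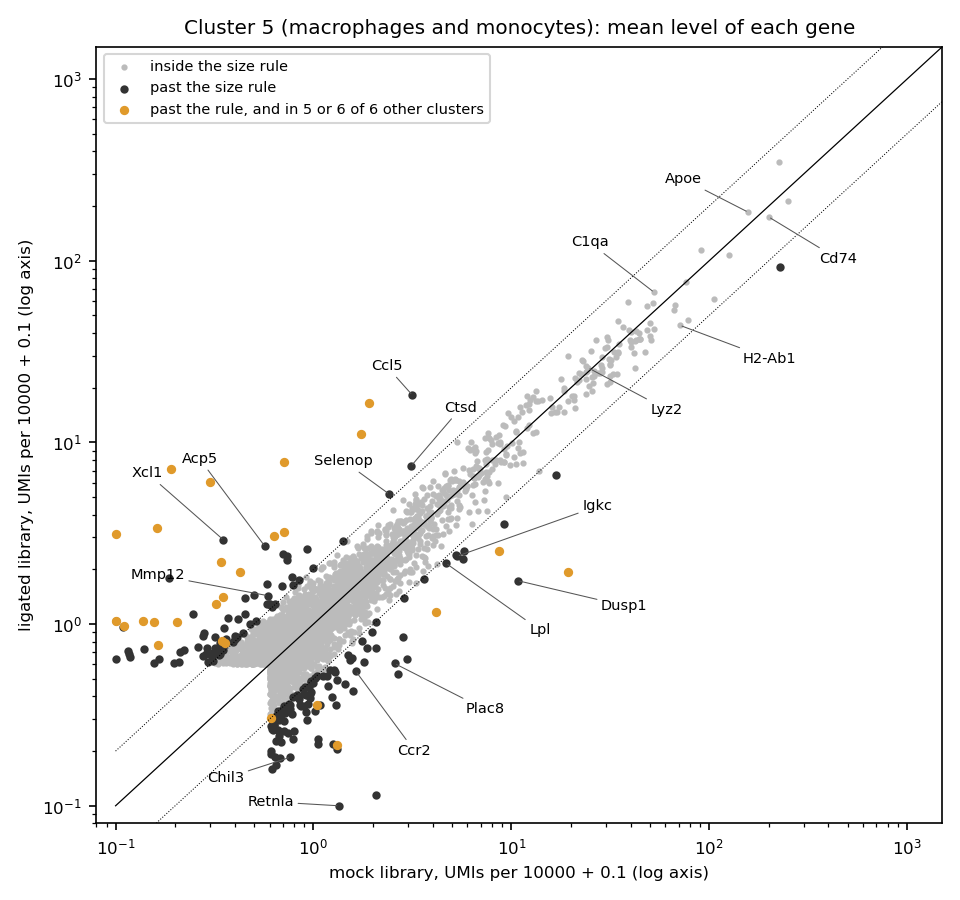
Mean level of each of 3116 genes in cluster 5 in the mock library (x axis) and the ligated library (y axis), both as UMIs per 10000 plus 0.1 on log axes, where each point is a gene. The solid line marks equal levels and the dotted lines the 2-fold limits, beyond which lie 91 genes that are higher and 112 that are lower in the ligated library, while Apoe, C1qa, Lyz2 and Cd74 lie between them.

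The defining macrophage genes had similar levels in both libraries. Of the 20 macrophage markers, 18 were compared and 0 passed the size rule in either direction, with a median difference of 0.22. Adgre1 stood at 3.27 after ligation and 2.47 after mock surgery (difference 0.39). Csf1r stood at 5.35 and 4.94 (0.11), and Lyz2 at 25.6 and 24.3 (0.07). Cd68 had the largest positive difference among the 18, at 5.55 and 3.45 (0.67). At the other end was Cybb, the catalytic subunit of the phagocyte NADPH oxidase, at 4.69 and 7.15 (-0.60). Of 10 genes of the colony-stimulating factor axis, 3 were compared and 0 passed the rule, with a median of 0.11. Csf2ra, a chain of the receptor for granulocyte-macrophage colony-stimulating factor, stood at 1.67 and 2.55 (-0.59), and Csf1, the main ligand of the Csf1r receptor, at 0.10 and 0.043. The transcription factors of the lineage were as close. Of 23 such factors, 18 were compared, 0 were higher and 2 lower, with a median of -0.0035. Spi1 and Irf8 (3.41 and 2.55), which set myeloid identity, were inside the rule. The 2 lower factors were Cebpa, needed for the myeloid lineage, at 0.53 and 1.44 (-1.28), and Nr4a1, an orphan nuclear receptor needed by patrolling monocytes, at 0.12 and 0.95 (-2.26). With a pseudocount of 1, Cebpa (-0.67) and Nr4a1 (-0.80) were inside the rule. Nr4a1 also had negative differences in clusters 0, 1, 2, 3, 4 and 6, from -0.05 to -0.96.

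The compared genes of blood monocytes were lower in the ligated library. Of the 12 monocyte markers, 8 were compared, 0 were higher and 6 were lower, with a median of -1.62 beside 0.03 over all genes. This count is partly set by the minimum level: Ccr2, Chil3 and Ace reached 0.5 only in the mock library, so they could enter only as lower. Ly6c2, Vcan, Fn1 and Treml4 were under 0.5 in both libraries and were not compared. Ccr2, the receptor that brings monocytes out of bone marrow, stood at 0.45 after ligation and 1.54 after mock surgery (-1.58). Plac8, an abundant transcript of monocytes and other immune cells, stood at 0.51 and 2.47 (-2.08). Both were higher in the mock library, where 77 cells stood behind each mean. Chil3, a chitinase-like protein of monocytes and alternatively activated macrophages, had 89.6% and 97.3% of its total in cluster 5 and stood at 0.085 and 0.66 (-2.05). Ace, a peptidase of non-classical monocytes that endothelium also makes, stood at 0.092 and 0.51 (-1.66). S100a4, a calcium-binding protein shared with lymphocytes, stood at 2.30 and 5.16 (-1.13), and it shares exons with the annotated gene Gm42674. With a pseudocount of 1 in place of 0.1, Plac8 (-1.20) stayed past the rule, while Ccr2 (-0.81), Chil3 (-0.62), Ace (-0.46) and S100a4 (-0.90) did not.

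A further list, of genes that mark recruited monocytes, overlaps the first and had 11 of 18 genes compared, 0 higher and 7 lower, with a median of -1.50. Beyond the genes already named these were Hp, which encodes haptoglobin, at 0.082 and 0.58, and Napsa, an aspartic protease, at 0.63 and 1.97. Il1b (1.89 and 1.92) and S100a6 (6.02 and 5.31) were inside the rule. Other blood leukocytes also express some of these genes, S100a4 among them. In the same cluster B and plasma cell markers summed to 7.19 and 11.8, and dendritic cell markers to 3.81 and 4.21. Their part in the lower monocyte genes was not tested. After the subtraction Ccr2 was at -2.02 and Plac8 at -2.11. The subtraction takes 25.7% of the library mean from the ligated and 11.1% from the mock cluster. It cannot separate RNA of B or dendritic cells that lies within cluster 5, so it does not test their part.

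**Figure D4:**
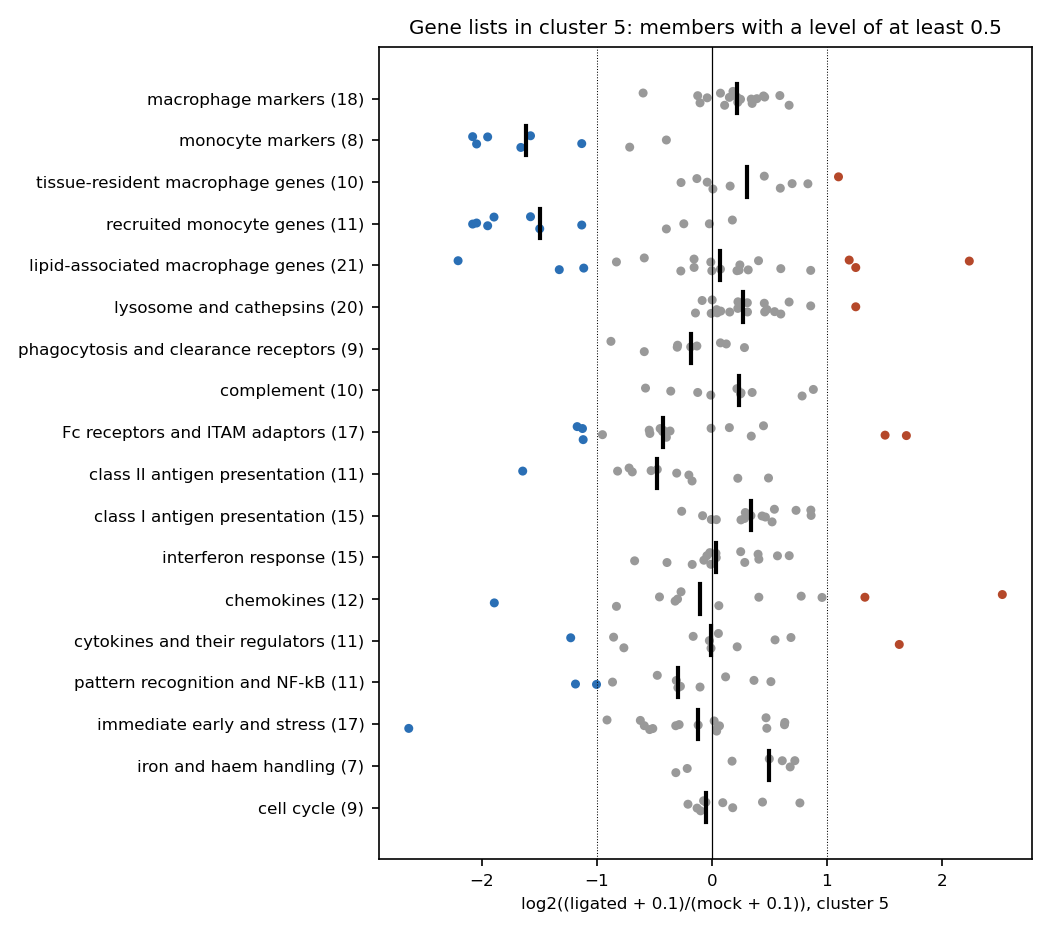
Difference between the ligated and the mock library in cluster 5 (x axis, log2) for the members of 18 gene lists (y axis, number of compared genes in parentheses), where each point is a gene, the black bar is the median of the list, and red and blue points lie past the size rule. The monocyte lists lie to the left, at medians of -1.62 and -1.50, while no macrophage marker lies past the rule.

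Genes of resident macrophages were mostly inside the rule. Of 24 such genes, 10 were compared, 1 was higher and 0 were lower, with a median of 0.31. The higher one was Selenop, a secreted selenium carrier, at 5.09 after ligation and 2.32 after mock surgery (1.10, or 0.88 with a pseudocount of 1). Cluster 5 expressed some genes best known from microglia, although P2ry12, another of them on this list, was under 0.5 in both libraries. Cx3cr1, the fractalkine receptor, stood at 6.41 and 6.60, and Tmem119, a membrane protein used to mark microglia, at 2.22 and 1.98. Fcrls (2.06 and 1.11) and Olfml3 (1.95 and 1.16) belong to the same set. In contrast, the genes of perivascular resident macrophages were low in both libraries. Lyve1 was listed at 0 after ligation and at 0.043 after mock surgery, and Mrc1, the mannose receptor, stood at 0.21 and 0.25.

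Of 24 lysosomal and cathepsin genes, 20 were compared, of which 1 was higher past the rule and 19 were inside it, with a median of 0.27. The difference was positive for 17 of the 20, beside 51.8% of all 3116 genes. Ctsd, the aspartic protease cathepsin D, stood at 7.33 after ligation and 3.02 after mock surgery (1.25). Ctsd shares exons with the annotated gene Gm49369, so reads could be split between the genes. Ctsb stood at 14.5 and 9.52 (0.60), and Ctsl at 1.64 and 0.86 (0.86). Cathepsin Z (Ctsz, 11.9 and 11.9) and cystatin C (Cst3, 76.1 and 76.4), an inhibitor of cathepsins, were level.

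Genes of lipid-handling macrophages went both ways. Of 24 such genes, 21 were compared, 3 were higher and 3 lower, with a median of 0.07. Acp5, the tartrate-resistant acid phosphatase of osteoclasts and some macrophages, stood at 2.58 after ligation and 0.47 after mock surgery (2.24). Its share of all Acp5 in the library was 47.5% and 12.6%. Spp1, or osteopontin, stood at 0.73 and 0.26 (1.19), and its difference turned to -1.94 after the subtraction. Lpl, lipoprotein lipase, was lower, at 2.06 and 4.58 (-1.11). The fatty acid binding proteins Fabp4 (2.18 and 5.63) and Fabp5 (0.54 and 2.87) were lower as well, but both were highest in cluster 0, and Fabp4 went to 0.00 after the subtraction. Apoe, a lipid carrier and one of the most abundant transcripts, stood at 185 and 157, and Trem2, a lipid-sensing receptor, at 2.17 and 2.05, both inside the rule.

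Receptors for dying cells and debris had no member past the rule among 9 compared of 25, with a median of -0.18. Axl, a receptor for phosphatidylserine on dying cells, stood at 1.49 and 1.70, Stab1 at 1.41 and 1.55, and the integrin chain Itgb5 at 2.46 and 2.00. Complement genes likewise had 0 of 10 compared genes past the rule, with a median of 0.23. The chains of C1q, which starts the classical pathway, stood at 67.0 and 52.5 for C1qa, at 56.0 and 48.1 for C1qb and at 36.3 and 30.5 for C1qc. The receptors of the cleavage fragments had larger differences that stayed under 1. C3ar1 stood at 2.31 after ligation and 1.21 after mock surgery (0.88), and C5ar1 at 0.89 and 0.48 (0.79).

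Receptors for antibodies and their signalling partners were split. Of 20 genes, 17 were compared, 2 were higher and 3 lower, with a median of -0.42. The lower genes were the activating receptor Fcgr4 (0.70 and 1.65), the inhibitory receptor Fcgr2b (0.42 and 1.02) and the kinase Syk (0.42 and 1.07). Fcgr2b and Syk reached 0.5 only in the mock library, so they could enter only as lower. The difference of Fcgr4 went from -1.13 to -0.92 after the subtraction, inside the rule. Fcer1g, the chain through which activating receptors signal, stood at 36.4 and 26.6 and Fcgr3 at 2.67 and 2.68, both inside the rule. The higher genes were the adaptor Hcst (1.56 and 0.48), which T and natural killer cells also express, and the inhibitory receptor Lilrb4a (2.28 and 0.64). Lilrb4a is uncertain, because its near copy Lilr4b went the other way (0.65 and 1.00) and it shares exons with Gm49339.

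Nearly all class II genes were inside the rule in the macrophage cluster. Of 16 class II genes, 11 were compared, 0 were higher and 1 was lower, with a median of -0.47. H2-Ab1 stood at 44.0 after ligation and 71.1 after mock surgery (-0.69), and H2-Eb1 at 47.2 and 77.7 (-0.72). H2-Aa stood at 53.5 and 66.1 (-0.31), and Cd74, the invariant chain that escorts class II molecules, at 174 and 199.7 (-0.20). All 4 were inside the rule. The lower gene was H2-Ob, part of the H2-O molecule that tempers peptide loading in B cells and dendritic cells, at 0.20 and 0.82 (-1.65). Cd86, which costimulates T cells, stood at 1.59 and 1.10 (0.49).

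In clusters 0, 1, 2, 3, 4 and 6, the other clusters compared, H2-Aa, H2-Ab1, H2-Eb1 and Cd74 had positive differences. These ran from 0.48 for Cd74 in cluster 2 to 3.41 for Cd74 in cluster 3. C1qa, a macrophage transcript, also had positive differences in these 6 clusters, from 1.81 to 2.67, beside 0.35 in cluster 5. The part of macrophage RNA in the class II levels of the other clusters was not tested, and the contrast between cluster 5 and the others was not tested either.

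**Figure D5:**
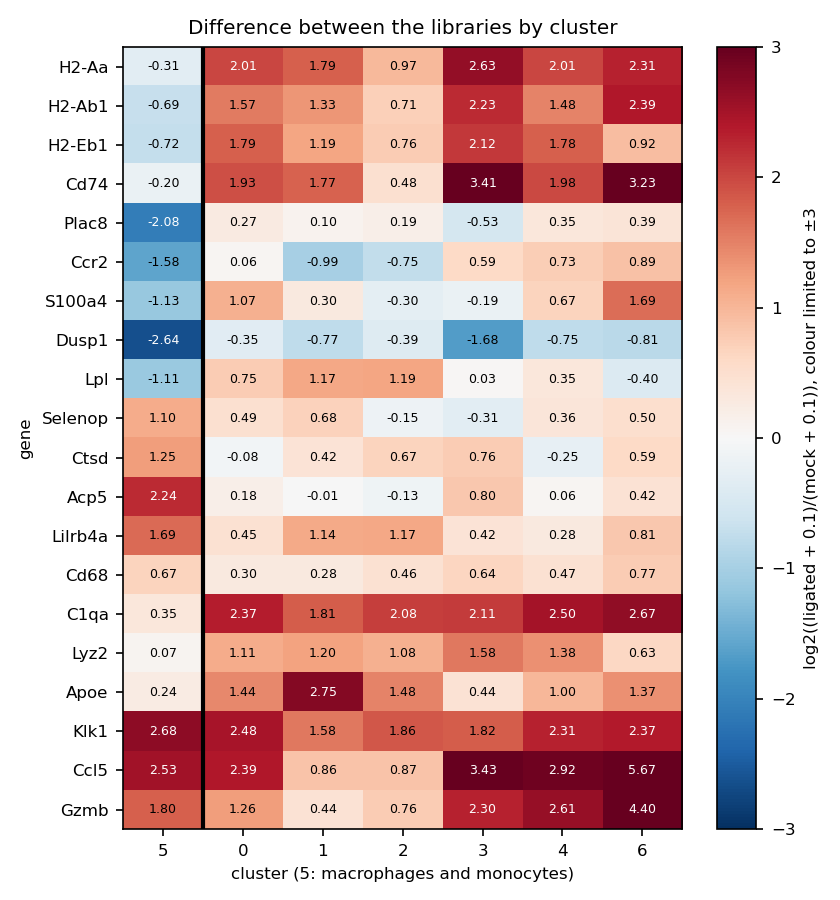
Difference between the ligated and the mock library (log2, colour and printed value) for 20 genes (rows) in cluster 5 and in the 6 other clusters compared (columns). The 4 class II genes in the top rows have differences from -0.72 to -0.20 in cluster 5, inside the size rule, and positive ones in each of the other 6 clusters, while Plac8, Ccr2 and S100a4 have their lowest values in cluster 5.

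Class I and interferon genes showed no member past the rule. Of 18 class I genes, 15 were compared, with a median of 0.34, and H2-K1 stood at 17.0 and 12.3 and Psme2, an activator of the proteasome, at 3.40 and 2.01. Of 31 interferon response genes, 15 were compared, 8 with a positive and 7 with a negative difference, and the median was 0.04. Isg15 stood at 1.52 and 1.53, and Bst2, a tether of budding virus, at 7.02 and 7.92. Mx1 was listed at 0 in every ligated cluster and was left out as a matter of gene annotation.

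Cluster 5 held most of the transcripts of several chemokines and cytokines in both libraries. It carried 87.4% of all Il1b after ligation and 83.0% after mock surgery, 85.3% and 86.5% of Ccl12, a monocyte attractant, and 83.5% and 70.4% of Cxcl2, a neutrophil attractant. For Tnfsf13b, or BAFF, a survival factor of B cells, the shares were 73.1% and 68.1%. For Tnf they were 18.4% and 7.99%, and for Ccl3 18.2% and 5.84%. These shares also move with the number of cells, since the cluster made up 5.96% of one library and 1.83% of the other.

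Within the cluster, the levels of most of these signals were close. Of 21 chemokines, 12 were compared, 2 were higher and 1 lower, with a median of -0.10. Ccl9, which draws myeloid cells, was lower, at 0.33 after ligation and 1.49 after mock surgery (-1.89). Ccl5, a chemokine made above all by T and natural killer cells, was higher, at 18.1 and 3.06 (2.53), and reached 90.7 in cluster 2. It was higher by 3.43 in cluster 3 and 5.67 in cluster 6 as well. Cxcl14, a chemokine of epithelium and stroma, stood at 1.03 and 0.35 (1.33), and its difference went to 0.00 after the subtraction. Cxcl16 (5.06 and 6.25), which serves as a scavenger receptor and a chemokine, and Ccl4 (5.59 and 5.36) were inside the rule.

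Of 30 cytokines and their regulators, 11 were compared, 1 was higher and 1 lower, with a median of -0.01. Tnfsf12, or TWEAK, stood at 0.76 after ligation and 0.18 after mock surgery (1.63). Il13ra1, a chain of the receptor for interleukins 4 and 13, stood at 0.31 and 0.86 (-1.23). Tgfb1 (1.84 and 2.07) and Tnf (0.77 and 0.44) were inside the rule, and Il6 and Lif were listed at or near 0 in both libraries. Among chemokine receptors, 1 of 5 compared genes (Ccr2) was lower and 0 were higher. Among 25 genes of pattern recognition, 11 were compared, 0 were higher and 2 lower, with a median of -0.30. The 2 were Tlr3, a sensor of double-stranded RNA (0.18 and 0.53), and Ly96, the partner of Tlr4 (0.30 and 0.69), whose difference was -0.94 after the subtraction. Both reached 0.5 only in the mock library, so they could enter only as lower.

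Markers of alternative activation were low. Retnla, a secreted protein induced by interleukin 4, was listed at 0 in the ligated cluster and stood at 1.25 in the mock cluster. Mgl2, a lectin of the same state, stood at 0.16 and 0.49, and Arg1 at 0.058 and 0.018. Nos2, the enzyme of classical activation, was listed at 0 in both. Of the 20 genes on this list only Retnla and Chil3 were compared, and both were lower. Both reached 0.5 only in the mock library, so they could enter only as lower, and the count says nothing about the list.

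Of 22 growth factors, 6 were compared and 0 were past the rule, with a median of 0.10. Grn, which encodes progranulin, stood at 4.45 and 4.21, Tgfbi, an extracellular protein induced by TGF-beta, at 2.56 and 2.35, and Pdgfb at 2.11 and 3.56 (-0.73). Igf1 stood at 0.35 and 0.065, below the level of 0.5 needed to be compared. Of 27 matrix remodelling genes, 6 were compared, 2 were higher and 0 lower. Mmp12, an elastase that marks the cluster, stood at 1.33 after ligation and 0.49 after mock surgery (1.29, or 0.65 with a pseudocount of 1), and the cluster carried 91.0% and 75.9% of it. The other was Spp1, described above. Mmp9 and Adamdec1 were at or near 0 in both libraries.

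Iron and haem genes were inside the rule for all 7 compared of 16, with a median of 0.50. Slc11a1, an iron exporter of phagosomes, stood at 1.17 and 0.69, Trf, or transferrin, at 3.13 and 1.86, and Hmox1, which breaks down haem, at 0.75 and 0.50. The ferritin chains, which store iron, stood at 108 and 125 for Fth1 and 58.4 and 51.7 for Ftl1. Haemoglobin transcripts are foreign to macrophages. Hbb-bs stood at 3.45 and 9.06 (-1.37, or -0.38 after the subtraction), and Hba-a1 at 2.44 and 5.66 (-1.18, or -0.86).

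Among 21 immediate early and stress genes, 17 were compared and 1 was lower, with a median of -0.12. That gene was Dusp1, a phosphatase that switches off MAP kinases, and apart from AY036118 it had the largest negative difference among genes with a level of at least 2, at 1.63 after ligation and 10.7 after mock surgery (-2.64). Dusp1 also had negative differences in the 6 other clusters, from -0.35 in cluster 0 to -1.68 in cluster 3. Fos (4.92 and 9.34), Junb (5.89 and 8.45) and Jun (9.27 and 5.93), immediate early genes that tissue dissociation can also induce, had differences of both signs and were inside the rule.

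Among genes with a level of at least 2, leaving out those that differed the same way in 5 or 6 of the other 6 clusters, the higher ones in the ligated cluster numbered 10. Of these, Acp5, Lilrb4a, Ctsd and Selenop are described above. The others were Xcl1, Ccl5, Gzmb, Ctsw, Cd69 and Cd7, which are genes of natural killer and T cells and had their highest level in cluster 1 or 2. Xcl1 stood at 2.81 and 0.25 (3.05), and Gzmb, a granule protease that kills target cells, at 2.34 and 0.60 (1.80). After the subtraction the difference of Gzmb was 0.79, that of Ctsw 0.81 and that of Cd7 -0.10, while Xcl1 (3.35), Ccl5 (2.21) and Cd69 (1.39) stayed past 1. Acp5 (2.49), Lilrb4a (1.91), Ctsd (1.39) and Selenop (1.32) stayed past 1 as well. The subtraction therefore did not part the natural killer and T cell genes from the others. Natural killer cell markers summed to 9.05 and 3.42 in the cluster, and their part in the natural killer and T cell genes was not tested.

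The 15 lowest by the same rule were Dusp1, Nupr1, Fabp5, Plac8, Cxcl12, Hbb-bs, Mucl2, Fabp4, Gm42418, Hba-a1, Igkc, S100a4, Lpl, Ifitm2 and Ahnak. Among them Igkc was the only one whose highest cluster is cluster 5, at 2.27 and 5.23 (-1.17, or -0.95 after the subtraction). Nupr1, a stress-induced chromatin protein, stood at 0.43 and 2.58. Mucl2, a mucin-like secretory transcript, stood at 6.52 and 16.8, beside 479 in cluster 8. Cxcl12, a chemokine of endothelium and stroma, stood at 0.75 and 2.72 and went to 0.00 after the subtraction.

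The genes whose highest cluster is cluster 5 were also read apart from the rest. Among those past the rule and not shared with the other clusters, 9 were higher in the ligated library, and 4 of the 9 (Rab43, Ube2d2a, Lilrb4a and Gng10) share exons with another annotated gene. The remaining 5 were Acp5, Mmp12, Asb2 (1.18 and 0.50), Tmem37 (0.64 and 0.22) and Pik3ap1, an adaptor to PI3-kinase (1.03 and 0.14). The 19 lower genes included the dicarboxylate transporter Slc13a3 (0.12 and 1.16, -2.53), Chil3, Ccl9, Cebpa, Fcgr4, Syk and Ly96. They also included Pla2g7, an enzyme that inactivates platelet-activating factor (0.46 and 1.11), and Themis2, a signalling protein of B cells and macrophages (0.38 and 0.87). After the subtraction Pla2g7 (-0.93), Themis2 (-0.84), Fcgr4, Ly96, Igkc and Iglc3 were inside the rule. The immunoglobulin genes Igkc, Iglc1 and Iglc3 were among the 19, beside B and plasma cell markers that summed to 7.19 and 11.8.

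Another 27 genes past the rule in cluster 5 differed the same way in 5 or 6 of the other 6 clusters, 21 of them higher and 6 lower. The largest were Atp6v0c (7.02 and 0.092), a subunit of the proton pump, Rnasek (3.02 and listed at 0 in the mock cluster), Mgp, Nme2 and Gzmc among the higher ones, of which Mgp went from 4.38 to 0.00 after the subtraction. AY036118, Coro1b, mt-Atp8, Lars2 and Nxf1 led the lower ones. Of these 10 genes, 5 (Rnasek, Nme2, AY036118, Coro1b and mt-Atp8) share exons with another annotated gene. These differences were shared by most of the clusters compared.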

How the data were processed

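Droplet single-cell RNA was measured in 1 ligated and 1 mock library. The submitters' processing notes list Cell Ranger 6.0.1, Seurat and the mouse build mm10, and the filters on cells, the clustering settings and any removal of doublets are not given in the sources used here. The deposited values (unit other: neither counts nor CPM) are linear: each is the average, in 1 cluster, of a gene's UMIs scaled to 10000 per cell. This was read from the values: every column sums to 10000, and each value of the table of both libraries is a weighted mean of the values of the table split by condition.

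The weights gave the number of cells per cluster and library (largest denominator tried 20000, tolerance 2e-09), and genes seen as 1 UMI in 1 cell gave UMI totals of single cells (tolerance 1e-06, at least 2 genes per total). The recovery of cell numbers was tested on simulated data, and that of UMI totals was not. No raw counts per cell were used, doublets were not called here, and barcodes shared between the libraries could not be counted from means. Calendar dates had replaced 21 gene names, which were restored from the order of the joint table. Of 20140 symbols, 3150 were at 0 in every mock column and 684 in every ligated column. These were left out of differences, since the libraries seem to name genes from different annotations, and 0 value columns were left without a sample.

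Differences used a pseudocount of 0.1, a minimum level of 0.5 in 1 library and a size of 1 on the log2 scale. The text names members of the lists and marker lists, the 15 genes at a level of at least 1 with the highest ratio of cluster 5 to the next cluster, and the 15 most positive and 15 most negative differences past the size rule at a level of at least 2. Genes past the rule with the same sign in 5 or 6 of clusters 0, 1, 2, 3, 4 and 6 were set apart, and the 5 largest each way are named. The genes past the rule that are highest in cluster 5 (Asb2, Slc13a3 and others) were named after their values were seen. The members and lists were chosen with earlier results of these data known. List genes without a row, such as Timd4, Vsig4, Clec7a and Ly6g, are not analysed here. The values of some other list members are not reported here. Intervals of cell shares are exact 95% binomial intervals (Clopper-Pearson). Python 3.11.15, numpy 2.4.6, pandas 2.3.3, scipy 1.17.1 and matplotlib 3.10.9 were used.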

Additional observations from a re-analysis of the deposited data

Results flagged for a closer look

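The Fc receptors and ITAM adaptors had a median difference of -0.42 in cluster 5, while the same list had medians from 0.37 to 3.02 in the 6 other clusters compared. The class II antigen presentation genes had a median of -0.47 in cluster 5 and medians from 1.86 to 2.43 in the 3 clusters with at least 3 of its genes at a level of 0.5. Both lists drew attention because the sign of the median in cluster 5 is opposite to that in every other cluster that gave a value. The medians do not cover the same genes, since fewer genes reached a level of 0.5 elsewhere. The Fc list had 17 genes compared in cluster 5 and 4 in each other cluster, and the class II list 11 and 4. With 1 library per condition the difference was not tested. Macrophage markers had medians from 0.37 in cluster 1 to 2.88 in cluster 6, beside 0.22 in cluster 5, over 3 to 5 genes in each other cluster. Fcgr1, Fcer1g and Tyrobp are on both the macrophage and the Fc list, and Ctss is on the macrophage and the class II list. These medians are therefore not independent, and the part of macrophage markers in the result was not tested. With a minimum level of 2, the median of the Fc receptor list in cluster 5 was 0.17.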

How the results depend on the processing

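No paired analysis was possible because each condition has 1 library. For the same reason no library was left out, and the differences carry no error other than the counting error of 77 mock and 680 ligated cells.

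The number of genes past the size rule depended on the settings more than the sign of single genes did. The main count was 203 (91 higher and 112 lower in the ligated library). It was 33 (18 and 15) with a pseudocount of 1, 38 (20 and 18) with a minimum level of 2, 582 (289 and 293) with no minimum, 44 (31 and 13) with a size of at least 2, and 30 (11 and 19) for only the genes highest in cluster 5, a setting chosen after seeing the data. In the strictest size setting the higher genes were the more numerous. Counts stayed within 1.5 times the main one with a pseudocount of 0.01 (288), with symbols of 1 library kept (270), with old and current symbols joined (203), with the library mean subtracted (247), without the genes shared with other clusters (176) and with centring on the median (206). List members past the rule went from 10 higher and 23 lower to 4 and 6 at pseudocount 1, or 5 and 7 if a level of 2 is required.

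The share of cells was 12.5% of the ligated and 8.45% of the mock cells in clusters 1, 2 and 5, and 8.04% and 4.19% without cluster 0. Medians turned for Fc receptors and ITAM adaptors (0.17) and for iron and haem handling (-0.019) with a minimum level of 2, where fewer genes enter. Differences turned for Cd7 (-0.10), Cd3g (-0.56) and Spp1 (-1.94) with the library mean subtracted. Of 84 single differences past the size rule, 82 stayed past it with the same sign with centring (Cd7 and Rab43 did not), 27 with a pseudocount of 1 and 59 with the subtraction.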

Other observations

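Some lists that are not about macrophage function were level between the libraries. Of 22 cell cycle genes, 9 were compared and 0 were past the size rule, with a median of -0.05. Mki67, a protein of dividing cells, stood at 0.55 after ligation and 0.47 after mock surgery, and Top2a, a topoisomerase of dividing cells, at 0.74 and 0.77. Of 21 hypoxia and glycolysis genes, 10 were compared and 0 were past the rule, with a median of 0.12. Gapdh stood at 10.5 and 7.62 and Hif1a, the oxygen-sensing transcription factor, at 0.56 and 0.90. Of 13 mitochondrially encoded genes, 12 were compared and 1 was lower, mt-Atp8 (1.06 and 4.08), whose reading frame overlaps that of mt-Atp6 (41.4 and 48.3).

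Some symbols on the lists had values in cluster 5 of 1 library and were listed at 0 in every column of the other, and no difference was drawn for them. Ifi30, a thiol reductase of antigen processing, stood at 3.98 in the ligated library. Il12b, a subunit of interleukins 12 and 23, stood at 0.20 there and Tnfsf13 at 0.15. In the mock library Mx1 stood at 0.32 and Mmp8 at 0.29.

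The share of some genes carried by cluster 5 differed between the libraries more than their level in it. Pf4, a platelet and macrophage chemokine, stood at 0.61 after ligation and 0.76 after mock surgery, and the cluster carried 62.9% and 6.83% of it. Grn stood at 4.45 and 4.21, with shares of 19.0% and 4.82%. These shares move with the number of cells in all 12 clusters.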
